A study of Mus musculus with 4 samples.

Results

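The T cell coreceptor genes Cd4, Cd8a and Cd8b were followed through 4 single-cell libraries of blood mononuclear cells labelled as mouse. They are 3 of the 16152 genes named in the files, and they were chosen by name for their pattern across blood cell classes in these same data, so their levels are given as a description and carry no test. The labels give C57BL/6J wild type mice, 6-8 weeks old. One library is labelled control (0 h). The others came from mice with acute pancreatitis at 12 h and 24 h, called initial, and at 96 h, called recovery. The disease was induced with 7 intraperitoneal injections of cerulein, a peptide that overstimulates the pancreas. The series' design text names 168 h in place of 96 h for the last time, so that time is called 96 h after the sample labels. How many mice each library held is not given in the sources used here, and with 1 library per time no difference between times has a replicate check.

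CD4 and CD8 sit beside the T cell receptor, bind MHC class II and class I respectively, and carry the kinase Lck to the receptor. CD8 exists as a dimer of the alpha chain (Cd8a) with the beta chain (Cd8b) on conventional cytotoxic T cells, and as a dimer of alpha chains alone on some other lymphocytes. In mice, NK cells and blood monocytes are usually described without these coreceptors, whereas rat NK cells carry the CD8 alpha chain and rat monocytes carry CD4. The files name no gene beginning with H2-, the mouse name of the major histocompatibility complex, and 28 genes beginning with RT1-, its rat name, beside 1691 and 238 names beginning with AABR07 and RGD, which are used in rat annotations. The labels give mouse and the build mm10, so labels and gene names go against each other, and the species of the libraries is in doubt for every result below. The gene called Cd8b in the files is a synonym of Cd8b1 in the mouse RefSeq table, which places all 3 genes on chromosome 6.

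Cells were put into classes by counting marker genes, none of which was a coreceptor, and the classes are named "-like" for that reason. In order of time (control, 12 h, 24 h, 96 h), T-like cells numbered 3123, 2135, 2388 and 5675, NK-like cells 340, 699, 390 and 426, and B-like cells 3444, 3495, 2985 and 4235. Nonclassical (patrolling) monocyte-like cells numbered 2843, 1913, 2298 and 1060, and classical (inflammatory) monocyte-like cells 367, 573, 1294 and 578. The split of monocytes is a cut through a range, and a further 333, 626, 632 and 147 monocyte-like cells lay between the 2 limits. The leading genes of each class included its own markers, such as Cd3e in T-like, Ncr1 in NK-like, Ebf1 in B-like, Vcan in classical and Adgre4 in nonclassical cells. Kept cells had a median of 3738 to 5057 transcript counts (unique molecular identifiers, UMIs) per library. The barcode lists did not match the matrix columns of the control and 24 h libraries, and the 12 h and 24 h lists were identical, yet 0 cells had the same counts in any pair of libraries. Levels are given in CPM, which scales the UMIs of a gene, summed over the cells of a class, to the same UMI total in every class and library, and every interval below is a 95% interval of counting error only.

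**Figure D1:**
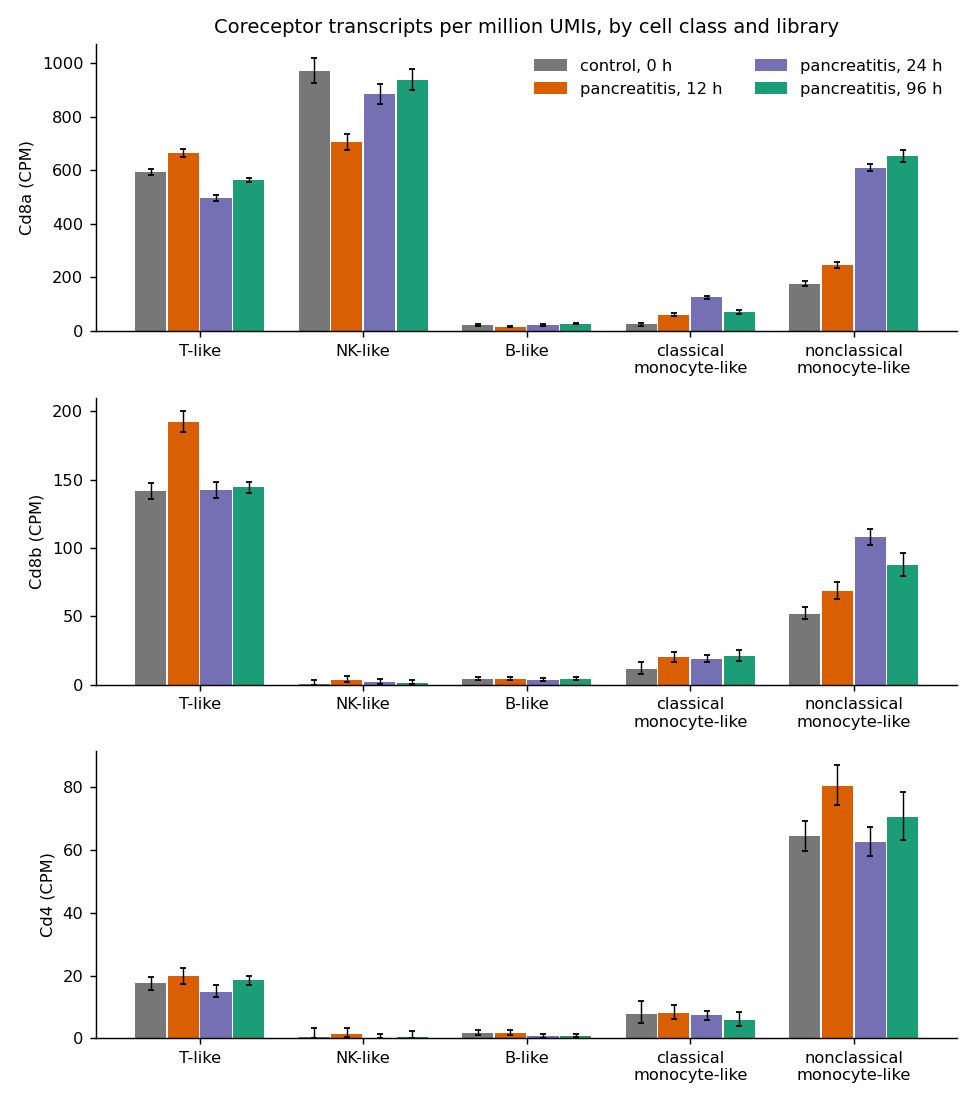
Levels of Cd8a, Cd8b and Cd4 in CPM (linear axes) for 5 cell classes, 1 bar per library, with exact Poisson intervals. Cd8a was highest in NK-like cells, and in nonclassical monocyte-like cells it went from 177 CPM in the control to 654 CPM at 96 h, while Cd4 was highest in nonclassical monocyte-like cells in each library.

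The 3 genes ranked the cell classes differently. For Cd8a, NK-like cells were highest in each library, at 972, 704, 884 and 937 CPM. T-like cells followed in the control and at 12 h, at 593 and 664 CPM, and had 496 and 563 CPM at 24 h and 96 h. Nonclassical monocyte-like cells had 177, 247, 610 and 654 CPM, below T-like cells in the control and at 12 h and above them at 24 h and 96 h. Over the 4 libraries the ranges of NK-like and T-like cells did not overlap, whereas those of T-like and nonclassical cells did. Classical monocyte-like cells had 25.2, 60.2, 126 and 71.9 CPM. B-like cells, which should lack all 3 genes and so show the level of free RNA and gating error, had 22.9, 16.6, 22.1 and 27.9 CPM. The control value of classical cells (interval 19.7 to 31.8 CPM) was not separable from the B-like value of that library.

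For Cd8b the order was another. T-like cells were highest, at 142, 192, 142 and 144 CPM, followed by nonclassical monocyte-like cells at 52.1, 68.7, 108 and 87.9 CPM. Classical cells had 11.7, 20.1, 19.0 and 20.9 CPM and B-like cells 4.54, 4.28, 3.79 and 4.43 CPM. NK-like cells were lowest, at 0.596, 3.58, 1.64 and 1.26 CPM, which is 1, 11, 4 and 3 UMIs in all. The ranges of these 5 classes over the libraries did not overlap.

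For Cd4, nonclassical monocyte-like cells and not T-like cells were highest, at 64.2, 80.4, 62.6 and 70.4 CPM. T-like cells had 17.5, 19.8, 14.9 and 18.5 CPM and classical cells 7.82, 8.14, 7.29 and 5.88 CPM. B-like cells, at 1.80, 1.81, 0.698 and 0.759 CPM, overlapped NK-like cells, in which 1, 4, 0 and 1 Cd4 UMIs were found. The 0 at 24 h, in 390 cells, allows a share of up to 0.769% of NK-like cells with a Cd4 UMI when 3 counts are taken as the limit.

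In T-like cells, each coreceptor marked a part of the class. A Cd8a UMI was found in 44.3%, 54.9%, 39.2% and 43.9% of T-like cells, in order of time. A Cd8b UMI was found in 31.3%, 39.0%, 28.4% and 30.9%. Cd4 was seen in 8.36%, 10.3%, 9.17% and 10.1%, far above the 0.523%, 0.572%, 0.235% and 0.283% of B-like cells, whose median depth of 2765 to 3279 UMIs was below the 5004 to 6544 of T-like cells. Cells with Cd8a held a median of 7, 7, 8 and 8 Cd8a UMIs, and cells with Cd4 a median of 1 Cd4 UMI in each library. Cd4 therefore rested on few molecules, and 47.6%, 35.1%, 52.4% and 46.4% of T-like cells had none of the 3 genes detected. A cell without a Cd4 UMI cannot be read as a cell without CD4.

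Cd4 and Cd8 were largely in different T-like cells. Cells with Cd4 and with either Cd8 gene made up 1.34%, 1.12%, 1.51% and 1.53% of the class, where the product of the separate shares gives 3.79%, 5.74%, 3.66% and 4.56%. After each cell was thinned to 2000 UMIs, so that depth no longer differed between cells, cells with both numbered 2, 6, 5 and 14. Cd8a and Cd8b, by contrast, were found together. Of T-like cells with Cd8a, 68.3%, 69.6%, 70.8% and 67.9% also had Cd8b, and only 34, 17, 16 and 60 cells had Cd8b without Cd8a.

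**Figure D2:**
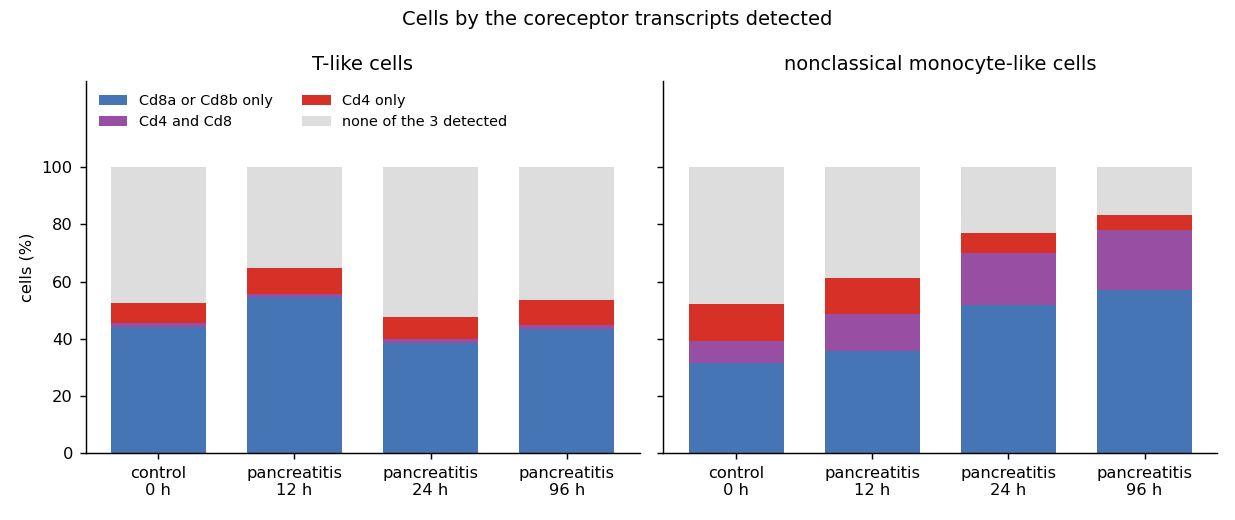
Share of cells (%) with Cd8a or Cd8b only, with Cd4 and a Cd8 gene, with Cd4 only, or with none of the 3, in each library, for T-like cells and nonclassical monocyte-like cells. Cells with Cd4 and a Cd8 gene made up 1.12% to 1.53% of T-like cells and 7.74% to 21.1% of nonclassical monocyte-like cells.

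T-like cells that also carried NK receptor or killer genes had a different coreceptor makeup. Cells with 3 or more of 11 NK markers made up 11.5%, 25.3%, 15.1% and 18.4% of T-like cells. Among them 78.6%, 83.0%, 77.6% and 76.2% had Cd8a, against 29.4%, 29.2%, 25.9% and 29.6% of T-like cells with no NK marker. Cd4 went the other way, at 7.26, 5.53, 4.60 and 6.72 CPM against 24.4, 37.5, 16.9 and 27.5 CPM. Of the Cd8a-positive cells with 3 or more NK markers, 55.1%, 56.6%, 58.2% and 60.4% also had Cd8b. That share was 66.6%, 72.5%, 69.7% and 64.7% in cells with no NK marker and 73.5%, 79.1%, 78.4% and 73.7% in cells with 1 or 2, so it was highest in the middle and lowest in the cells with 3 or more. The last were the deepest in each library, with medians of 5986 to 7907 UMIs.

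Against the control library, T-like coreceptor levels differed little. For Cd8a the 12 h, 24 h and 96 h ratios were 1.12 (interval 1.09 to 1.15), 0.836 (0.812 to 0.862) and 0.949 (0.926 to 0.972). With a stricter gate, which asked for 1 more T marker and allowed at most 1 NK marker, the 12 h ratio turned to 0.9496, so no direction is drawn from it. For Cd8b they were 1.36 (1.28 to 1.43), 1.003 (0.947 to 1.06) and 1.02 (0.969 to 1.07). For Cd4 the 3 intervals included 1, with ratios of 1.13, 0.852 and 1.06, and the stricter gate gave 1.503 at 12 h. None of the 3 genes reached a 2-fold difference in T-like cells. Of all genes compared there, 1.35%, 0.711% and 0.101% were at least 2-fold higher and 0.385%, 0.661% and 0.151% at least 2-fold lower, at the same times. In such class sums, fewer coreceptor-bearing cells and less RNA per cell cannot be told apart. The 15 cytotoxic effector genes measured in T-like cells had a median log2 ratio of 1.18 at 12 h against 0.09 for all genes compared, and 9 of them were at least 2-fold higher. Markers of other cells moved with the libraries in T-like cells. The 12 NK markers summed to 659, 1228, 891 and 816 CPM and the 8 neutrophil markers to 11.6, 3057, 1951 and 254 CPM, and their part in the result was not tested. Neutrophil markers were above the control library in each of the 5 classes at each later time. Of 27 T cell receptor signalling genes, 0 were at least 2-fold higher or lower at any time. Of 14 coreceptor ligand and MHC genes, 5 were at least 2-fold lower at 24 h (Cd74, RT1-Ba, RT1-Bb, RT1-Da and RT1-Db1), with a median log2 ratio of -0.63 against -0.08 for all genes. Of 18 lineage choice genes, 2 were at least 2-fold higher at 12 h, Tbx21 and Eomes, the latter at only 1.24 CPM. List genes needed 20 UMIs in sum but not the 50 CPM asked of all genes compared.

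NK-like cells carried Cd8a without Cd8b. A Cd8a UMI was found in 91.5% (interval 88.0% to 94.2%), 80.1% (77.0% to 83.0%), 91.0% (87.7% to 93.7%) and 88.3% (84.8% to 91.2%) of them, against 5.21% to 9.42% of B-like cells. Thinned to 2000 UMIs, the shares were 79.3%, 66.2%, 77.3% and 75.7%. The 12 h library was the lowest, with a median of 3 Cd8a UMIs in positive cells where the others had 5, and a level ratio to control of 0.724 (0.679 to 0.773). The later ratios were 0.910 (0.853 to 0.971) and 0.964 (0.904 to 1.03). Cd8b was found in 1, 11, 4 and 3 NK-like cells, a share of 0.294% to 1.57% that overlapped the 1.14% to 1.61% of the shallower B-like cells, so no expression is read from it. The gate of NK-like cells allows 1 of the 7 T markers, so low levels of these markers are partly set by it. Among them, Cd3e was at 0.822 to 2.98 CPM in NK-like cells while Trbc2 was at 161 to 219 CPM. Cd5 and Themis had no UMI in NK-like cells, but Cd5 was at only 2.22 to 4.12 CPM in T-like cells. Lck, the kinase that coreceptors bind, was at 529, 576, 429 and 590 CPM in NK-like cells and 433, 444, 368 and 480 CPM in T-like cells.

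The ratio of the 2 CD8 chains set NK-like cells apart. For each 100 Cd8a UMIs, T-like cells held 23.9, 28.9, 28.7 and 25.6 Cd8b UMIs. NK-like cells held 0.0613 (interval 0.00155 to 0.342), 0.508 (0.253 to 0.911), 0.186 (0.0506 to 0.477) and 0.135 (0.0278 to 0.395). Nonclassical monocyte-like cells held 29.3, 27.8, 17.7 and 13.4, near T-like cells in the control and at 12 h and below them at 24 h and 96 h. The few CD8 UMIs of B-like cells stood at 19.8, 25.7, 17.1 and 15.8, which overlapped T-like and nonclassical cells. So in summed UMIs Cd8a stood without Cd8b in NK-like cells but not in nonclassical cells, whose ratio was lower at 24 h and 96 h. Cell by cell, 24.5%, 28.0%, 37.2% and 49.5% of nonclassical cells had Cd8a and no Cd8b UMI. Nonclassical cells with Cd8b held a median of 1 Cd8b UMI in each library. A cell without a Cd8b UMI therefore cannot be read as a cell without Cd8b. Of nonclassical cells with Cd8a, 15.1%, 23.4%, 38.7% and 26.2% also had Cd8b. Classical cells held 46.5, 33.4, 15.1 and 29.0 Cd8b UMIs per 100 Cd8a UMIs.

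**Figure D3:**
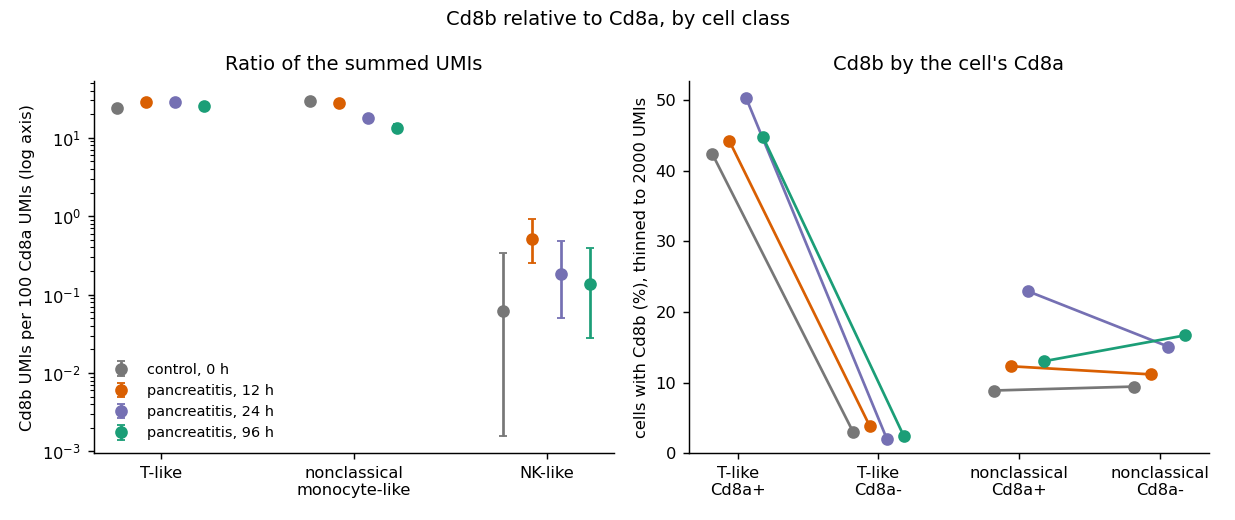
Left, Cd8b UMIs per 100 Cd8a UMIs (log axis) by class and library with exact intervals. Right, share of cells with Cd8b (%) among Cd8a-positive and Cd8a-negative cells after thinning to 2000 UMIs, 1 line per library: T-like cells drop from 42.3% or more to 3.81% or less, while nonclassical monocyte-like cells stay between 8.90% and 23.0% on either side.

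Nonclassical monocyte-like cells held all 3 coreceptor transcripts. Cd8a was found in 28.9% (interval 27.2% to 30.6%), 36.5% (34.3% to 38.7%), 60.6% (58.6% to 62.6%) and 67.1% (64.2% to 69.9%) of cells. Cd8b was found in 14.8%, 20.7%, 32.7% and 28.6%, and Cd4 in 20.6%, 25.6%, 25.0% and 26.3%. The same shares in B-like cells were at most 9.42% for Cd8a, 1.61% for Cd8b and 0.572% for Cd4, at a median depth of 2765 to 3279 UMIs against 3541 to 4425. T cell genes did not come along. The gate allows 1 T marker, and the 7 T markers together reached 39.4, 21.7, 19.9 and 40.7 CPM in nonclassical cells, against 2641 to 3119 CPM in T-like cells. Cd3e was at 9.19, 6.03, 3.27 and 11.7 CPM and Lck at 9.94, 7.45, 4.99 and 16.3 CPM. Cd3e had been 606 to 697 CPM in T-like cells. Scrublet, a doublet caller, marked 3, 4, 6 and 4 of these cells.

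Cd8a was the coreceptor that differed most from the control library in nonclassical cells. Its level ratios at 12 h, 24 h and 96 h were 1.39 (interval 1.31 to 1.49), 3.44 (3.27 to 3.62) and 3.68 (3.48 to 3.90). At 12 h, 114 of 2736 genes compared had a higher ratio, at 24 h 11 of 2702 and at 96 h 1 of 2667. Genes at least 2-fold higher made up 0.987%, 1.15% and 0.225% of those compared at the 3 times. Cd8b had ratios of 1.32 (1.17 to 1.49), 2.07 (1.87 to 2.29) and 1.69 (1.48 to 1.92), and Cd4 of 1.25 (1.12 to 1.40), 0.974 (0.876 to 1.08) and 1.10 (0.959 to 1.25). From 24 h to 96 h Cd8a differed by a ratio of 1.07 (1.03 to 1.12) and Cd8b by 0.814 (0.728 to 0.910). The 3 comparisons share the control library. Over the same libraries B-like Cd8a stayed between 16.6 and 27.9 CPM. Positive nonclassical cells also held more molecules each, with a median of 2, 2, 4 and 4 Cd8a UMIs, and cells with 5 or more made up 3.41%, 6.90%, 26.7% and 27.4% of the class.

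Cd8a was also above the control library in classical monocyte-like cells and in those between the limits. Classical cells had Cd8a ratios to control of 2.39 (interval 1.85 to 3.12), 5.00 (3.94 to 6.43) and 2.85 (2.21 to 3.73), where 8.49%, 3.10% and 0.211% of genes compared were at least 2-fold higher. Genes with a higher ratio numbered 110 of 2533, 18 of 2385 and 3 of 2372 at these times. The control value rested on 71 UMIs at 25.2 CPM, not separable from the 22.9 CPM of B-like cells, so the ratios are set against a background level. Classical cells also differed between libraries in neutrophil markers, at 656, 25846, 2790 and 1236 CPM in order of time. Their median depth was 7426 UMIs in the control and 11644 at 12 h, and the part of either was not tested. Classical Cd8b ratios were 1.72 (1.17 to 2.59), 1.62 (1.13 to 2.40) and 1.78 (1.20 to 2.71), and the Cd4 intervals all included 1. Cells between the 2 limits had Cd8a at 79.1, 148, 296 and 310 CPM, between the nonclassical and classical levels in each library.

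**Figure D4:**
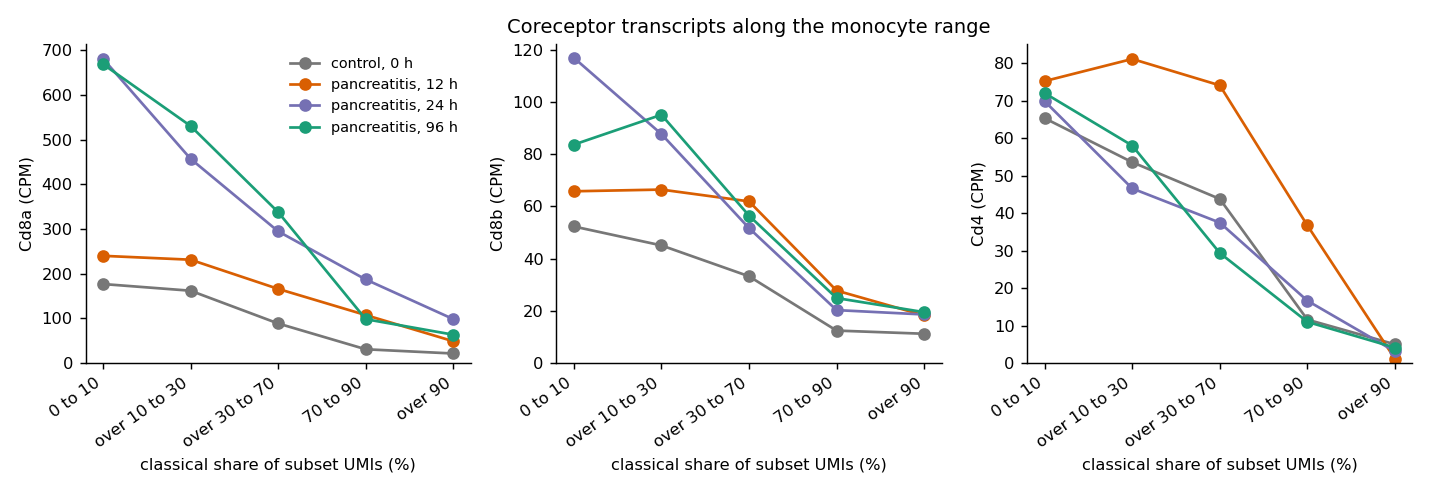
Levels in CPM of Cd8a, Cd8b and Cd4 in 5 bins of monocyte-like cells, ordered by the share of classical genes among a cell's subset UMIs (%), 1 line per library. All 3 genes are lower in the most classical bin than in the least classical one in each library, and in the least classical bin Cd8a is 681 CPM at 24 h and 669 CPM at 96 h against 177 CPM in the control.

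All 3 genes were lower in the most classical bin of the monocyte range than in the least classical one, but not every step between bins went down. In the control library Cd8a was 177 CPM in cells with at most 10% classical subset UMIs, 162 CPM over 10% to 30%, 88.3 CPM over 30% to 70%, 30.6 CPM from 70% to 90% and 21.1 CPM above 90%. At 24 h the same bins held 681, 457, 295, 187 and 98.1 CPM, and at 96 h 669, 531, 338, 98.0 and 63.2 CPM. The difference from the control library was thus present within the least classical bin and within the most classical one. At 12 h Cd8a went from 240 to 48.5 CPM between these end bins. The share of cells with Cd8a was 36.25% and 34.5% there, at median depths of 3663.5 and 14056 UMIs. Cd8b at 96 h was 83.7, 95.1, 56.5, 24.9 and 19.5 CPM over the 5 bins, highest in the second. Cd4 went from 65.4, 75.3, 69.9 and 72.1 CPM in the least classical bin to 4.97, 1.10, 3.06 and 4.10 CPM in the most classical one. Its second bin at 12 h was higher than the first, at 81.2 CPM. At 12 h Cd4 was still 74.2 CPM in the middle bin, where the other libraries had 43.8, 37.5 and 29.4 CPM. Between 70% and 90% it was 11.6, 36.7, 16.6 and 10.97 CPM, above the level of the most classical bin in each library, so the classical Cd4 level depends on where the range is cut.

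Unlike in T-like cells, Cd4 and the Cd8 genes were spread over nonclassical cells almost without regard to each other. Cd8a and Cd8b went together far less than in T-like cells, and to a degree that differed by library. Cells with Cd4 and a Cd8 gene made up 7.74%, 13.02%, 17.97% and 21.1% of the class, next to products of the separate shares of 8.10%, 12.5%, 17.5% and 20.6%. After thinning, Cd8b was found in 8.90%, 12.3%, 23.0% and 13.1% of Cd8a-positive cells and in 9.45%, 11.2%, 15.1% and 16.7% of Cd8a-negative cells. In T-like cells the same shares were 42.3%, 44.2%, 50.3% and 44.7% against 3.04%, 3.81%, 2.06% and 2.48%. The library at 24 h was the one in which nonclassical Cd8b stood most above the Cd8a-negative share. Without thinning, the Cd8b level was 54.3, 81.1, 129 and 80.6 CPM in Cd8a-positive and 51.1, 61.5, 76.3 and 102 CPM in Cd8a-negative nonclassical cells, so the library at 96 h went the other way. Cd4 was at 58.9, 83.2, 65.7 and 76.0 CPM against 66.4, 78.7, 58.0 and 59.0 CPM, with the control library going the other way.

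What other genes went with the coreceptors was tested within libraries, each library giving both sides of the contrast. In T-like cells, cells with Cd8a or Cd8b and no Cd4 (1376, 1165, 917 and 2465 cells) were set against cells with Cd4 and neither Cd8 gene (219, 196, 183 and 489 cells). By edgeR, 511 of 8733 genes (5.85%) were higher and 522 (5.98%) lower in the Cd8 cells at an adjusted p under 0.05, the 3 coreceptors left out. The Cd8 cells were somewhat deeper, with medians of 5673 to 7201 UMIs against 4764 to 6440, and thinned to 2000 UMIs the contrast gave 252 and 182 genes. Thinning also left only 108, 85, 63 and 210 cells on the Cd4 side. The lower counts therefore cannot be put down to equal depth alone. Without the library at 12 h it gave 317 and 285 genes, and without that at 96 h 284 and 297.

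Killer genes led the Cd8 side. All 15 cytotoxic effector genes tested were higher, with a median log2 difference of 4.30 against 0.00 for all genes tested. Gzmm, which encodes granzyme M, a protease of killer cell granules, was at 374, 827, 564 and 606 CPM in Cd8 cells and at 9.91, 9.17, 8.38 and 24.2 CPM in Cd4 cells. The groups did not overlap in any library, and the difference was 5.38 ± 0.17 (SE; edgeR adjusted p = 6.56e-12). Ccl5, a chemokine of effector T cells, was at 1676, 4745, 2511 and 2207 CPM against 178, 87.5, 36.9 and 89.4 CPM. The NK receptor genes Klrb1a, Klrb1c and Klre1 were also among the 10 clearest, at 4.13, 5.97 and 4.96. Markers of NK cells moved with this side as a whole, with 12 genes summing to 1043 to 1748 CPM in Cd8 cells and 177 to 250 CPM in Cd4 cells. With T-like cells of 3 or more NK markers left out, an alternative chosen after seeing the data, 7 of 13 cytotoxic genes tested stayed higher and the median was 0.78. Gzmm then differed by 2.66 (edgeR adjusted p = 9.33e-10), and Gzma, Gzmb and Gzmk by 0.32, 0.06 and 0.12, with edgeR adjusted p of 0.586, 0.9504 and 0.851. Gzma is itself among the 11 NK markers by which cells were left out, as are Prf1, Nkg7, Klrd1 and Klrk1 of this list. The smaller differences of these genes are therefore partly set by the filter. At 12 h the filter took the Cd8 side from 1165 to 720 cells and the Cd4 side from 196 to 187.

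Genes that steer the choice between the CD4 and CD8 fates split by side, 4 higher and 9 lower of 17 tested in Cd8 cells (median -0.27). Without T-like cells of 3 or more NK markers, 4 were higher and 5 lower of 16 (median -0.11). Runx3, a transcription factor that silences Cd4 in the CD8 lineage, was at 44.5, 50.4, 52.4 and 31.7 CPM in Cd8 cells and 19.0, 27.5, 20.1 and 15.7 CPM in Cd4 cells (difference 1.19 ± 0.12). Zbtb7b, which encodes the CD4 lineage factor ThPOK, was lower in Cd8 cells by a log2 difference of -2.20 ± 0.39, from levels of only 2.52 to 4.17 CPM in Cd4 cells. Gata3, a factor needed for CD4 development, differed by -1.05 ± 0.11, and Runx1 by -1.07 ± 0.09. Foxp3, the factor of regulatory T cells, was at 30.6, 73.3, 11.7 and 15.0 CPM in Cd4 cells against 10.4, 4.73, 5.21 and 4.02 CPM (difference -2.18 ± 0.32). Cd40lg, the helper signal to B cells, was the gene with the smallest p on the Cd4 side, at 334, 246, 297 and 421 CPM against 54.7, 34.3, 38.3 and 83.4 CPM (difference -2.55 ± 0.10). Tbx21, which encodes the effector factor T-bet, was higher by 2.39 ± 0.23, and turned to -0.34 (edgeR adjusted p = 0.662) when cells with 3 or more NK markers were left out. Other genes clearest on the Cd4 side were Lgmn, Trib2, Capg, S1pr4, Itgb7, Il6r, Olfm1, Map4k4 and Ccr6, from -1.02 for Itgb7 to -2.51 for Olfm1.

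T cell receptor signalling genes differed less, 4 higher and 7 lower of 27 tested (median -0.11). Cd28, the main costimulatory receptor, was lower in Cd8 cells by -1.35 ± 0.11, and Trat1, an adaptor of the receptor complex, by -1.07 ± 0.10. The adaptor Lat was lower by -0.42 ± 0.07, and the kinase Zap70 higher by 0.39 ± 0.08, a call lost with thinned cells (edgeR adjusted p = 0.210). Lck differed by 0.09 ± 0.06 (edgeR adjusted p = 0.446), and Cd3d, Cd3e and Cd3g did not pass the threshold either. Of 11 genes of naive and recirculating lymphocytes, 2 were higher and 4 lower (median -0.34), but 4 were higher and 2 lower (median -0.04) without T-like cells of 3 or more NK markers. Ccr9, a gut-homing chemokine receptor, was the largest of the higher ones at 2.61 ± 0.30, and the interleukin-7 receptor gene Il7r was lower by -0.55 ± 0.11. Among 13 coreceptor ligand and MHC genes, RT1-A1 and RT1-A2, of class I, were 0.21 and 0.25 higher on the log2 scale, and Il16, a secreted CD4 ligand, differed by -0.32 ± 0.08. These 3 calls were lost in 8, 6 and 5 of 10 alternatives (highest edgeR or DESeq2 adjusted p of 0.628, 0.410 and 0.2005), and RT1-A1 was lower in Cd8 cells of the control library. Without T-like cells of 3 or more NK markers, 0 of 12 genes of this list were higher and 1 was lower.

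**Figure D5:**
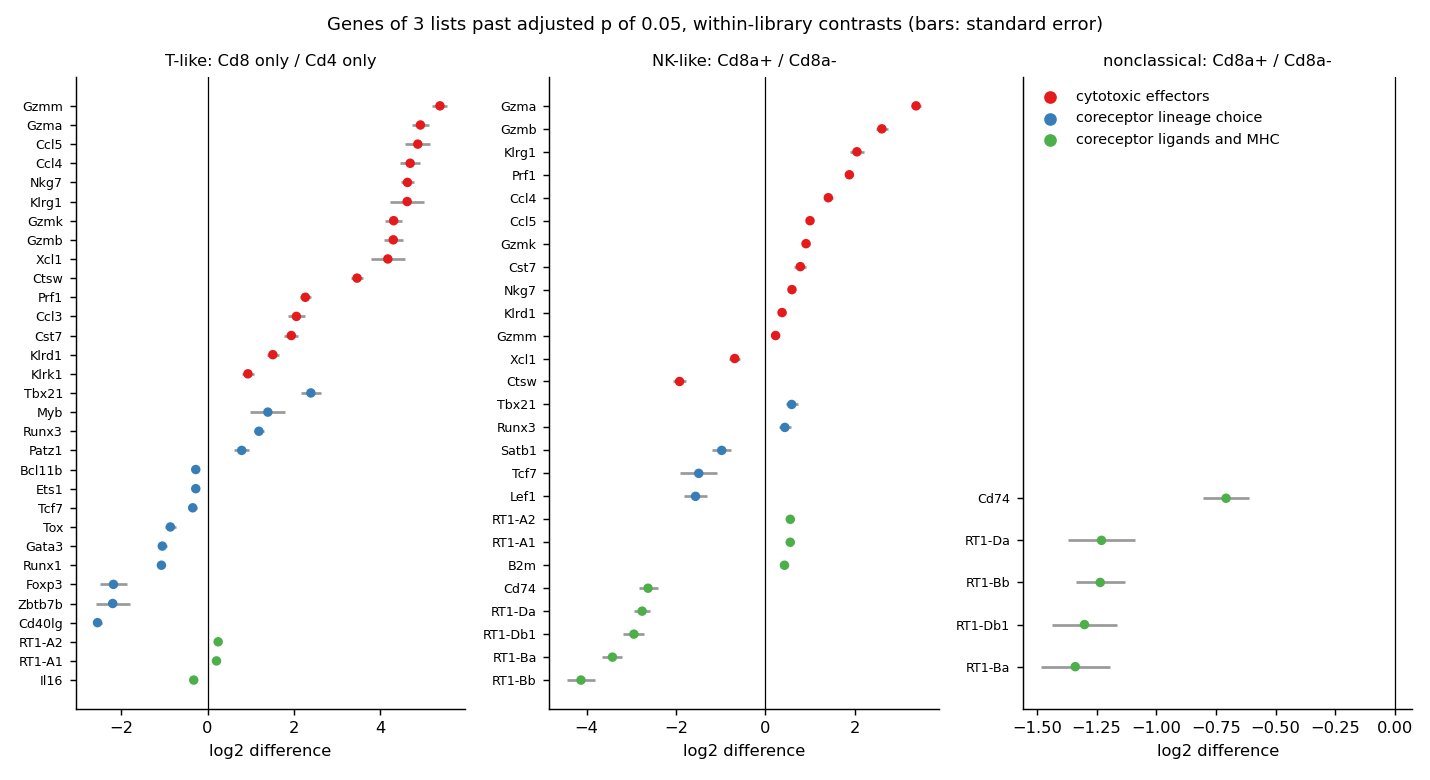
Log2 differences (linear axis, points with standard errors) of genes past an adjusted p of 0.05 in 3 fixed lists, for the 3 within-library contrasts. All 15 cytotoxic genes lie right of 0 in T-like cells, 11 right and 2 left in NK-like cells, and only class II genes and Cd74 appear for nonclassical monocyte-like cells.

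In NK-like cells the minority without a Cd8a UMI (29, 139, 35 and 50 cells) was set against the Cd8a-positive majority (311, 560, 355 and 376 cells). By edgeR, 294 of 6524 genes (4.51%) were higher and 262 (4.02%) lower in Cd8a-positive cells. Of 15 cytotoxic genes, 11 were higher and 2 lower (median 0.79 against 0.00 for all genes tested). Gzma, encoding granzyme A, was at 4014, 3645, 4824 and 3395 CPM in positive cells and 453, 499, 350 and 198 CPM in negative ones, a difference of 3.38 ± 0.11 (edgeR adjusted p = 4.90e-27). Gzmb and Prf1, encoding granzyme B and the pore protein perforin, were higher by 2.61 ± 0.13 and 1.88 ± 0.08, and the maturation receptor Klrg1 by 2.05 ± 0.16. The 2 lower ones were Ctsw, encoding the protease cathepsin W (-1.92 ± 0.14), and Xcl1, encoding a chemokine that attracts dendritic cells (-0.68 ± 0.12). Gzma, Prf1, Nkg7 and Klrd1 were among the 11 genes that define the class, at least 3 of which both sides had to carry. The 12 NK markers summed to 14355 to 15894 CPM in positive and 6782 to 7772 CPM in negative cells, and their part in the result was not tested. Negative cells were the deeper by median UMIs in all libraries but that at 96 h, and thinning gave 101 and 162 genes.

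Genes of the naive and recirculating lymphocyte list were on the Cd8a-negative side. Of 7 tested, 0 were higher and 5 were lower in positive cells (median -1.29). Il7r, the interleukin-7 receptor gene, was at 18.4, 17.8, 24.7 and 20.4 CPM in negative cells against 0, 1.66, 2.28 and 5.28 CPM. The negative sides held 163370, 673328, 242543 and 293473 UMIs of all genes, so these Il7r levels rest on few molecules. Cd27, which marks immature NK cells in mice, was at 196, 324, 289 and 388 CPM against 103, 146, 99.1 and 149 CPM, and the transcription factor genes Lef1 and Tcf7 were lower in positive cells as well. Cd7, a surface protein of T and NK lineages, differed by -2.09 ± 0.16. Of 16 T cell receptor signalling genes, 2 were higher (Zap70 and Cd247) and 4 lower, Cd2 and Ptpn22 among them, with a median of 0.01. Of 13 lineage choice genes, Tbx21 and Runx3 were higher and Lef1, Satb1 and Tcf7 lower (median -0.16). With cells thinned to 2000 UMIs none of these higher calls held, and the lists had 0 higher and 3 lower of 15 and 0 higher and 2 lower of 7. The call of Runx3 was lost in 5 alternatives and that of Tcf7 in 4. In the control library Tcf7 was at 7.26 CPM in positive and 6.12 CPM in negative cells. The latter were 29 cells with 163370 UMIs in sum, too few to give a direction there.

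Class II genes were also higher in the negative cells. Of 12 coreceptor ligand and MHC genes, 3 class I genes (B2m, RT1-A1 and RT1-A2) were higher in positive cells, by 0.43 to 0.56, and 5 class II genes were lower. RT1-Ba was at 1359, 416, 24.7 and 232 CPM in negative cells and 40.3, 52.4, 14.6 and 33.6 CPM in positive ones, so that the 24 h library showed the smallest gap. Cd74, the class II chaperone, and RT1-Bb were lower in 3 of 4 libraries, with 24 h the exception, and both calls were lost with DESeq2 (adjusted p = 0.0604 and 0.257). Of other lineages, the 6 dendritic cell markers summed to 0 to 49.0 CPM in negative and 1.92 to 6.24 CPM in positive cells, with 2 to 6 of them at 0 in the negative cells. The 7 B markers summed to 12.4 to 49.0 CPM and 22.8 to 45.6 CPM, and the part of either in the result was not tested.

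In nonclassical monocyte-like cells the same contrast (821, 698, 1393 and 711 Cd8a-positive against 2022, 1215, 905 and 349 negative cells) found little. By edgeR, 33 of 8366 genes (0.394%) were higher and 46 (0.550%) lower in positive cells. DESeq2 gave 7 and 14, and without the library block both counts were 0, with 139 genes at an unadjusted p under 0.05. Leaving out the control library gave 36 and 72 genes, 12 h 18 and 34, 24 h 14 and 30, and 96 h 27 and 29. None of the genes tested in 4 of the 5 lists passed, which covers 17 T cell receptor signalling, 10 lineage, 12 cytotoxic and 6 naive lymphocyte genes.

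Fcgr3a, encoding the Fc receptor CD16 and itself a marker of the class, was the clearest higher gene, at 732, 1833, 1401 and 842 CPM in positive and 516, 1161, 676 and 536 CPM in negative cells (difference 0.71 ± 0.06, edgeR adjusted p = 2.97e-08). The markers Cx3cr1 and Spn did not pass, at 0.12 ± 0.07 and 0.06 ± 0.03. Pla2g2d, a secreted phospholipase gene, and Cd72, a surface lectin gene, were higher by 0.52 ± 0.06 and 0.92 ± 0.16. The calls of Fcgr3a, Pla2g2d and Cd72 were lost in 1, 1 and 3 of 10 alternatives. On the other side, class II genes were lower in Cd8a-positive cells: 5 of 13 coreceptor ligand and MHC genes fell, with none higher. RT1-Da was at 486, 258, 201 and 379 CPM in positive and 699, 426, 639 and 1434 CPM in negative cells (difference -1.23 ± 0.14). Clec10a, a lectin gene of dendritic cells, was at 1.64, 2.81, 18.9 and 6.77 CPM against 15.2, 13.4, 95.5 and 52.7 CPM. The call of RT1-Da was lost in 2 of 10 alternatives and that of Clec10a in 1 of 8. Nonclassical markers as a list summed to 3227 to 3877 CPM in positive and 2717 to 3063 CPM in negative cells. Dendritic cell markers summed to 2.29 to 19.2 CPM in positive and 14.4 to 97.8 CPM in negative cells. Clec10a is 1 of these 6 markers and made up most of the negative sums of 17.4, 14.4, 97.8 and 56.5 CPM. In negative cells 1 to 4 of the 6 were at 0, so the sum mostly shows 1 gene. The gate had already removed monocyte-like cells with more than 1 of the 6, on both sides. With every cell holding a UMI of the 6 dendritic markers left out, an alternative chosen after seeing the data, 24 genes were higher and 15 lower. The edgeR difference was then -0.50 for RT1-Da (adjusted p = 0.00153) and 0.66 for Fcgr3a (adjusted p = 1.42e-07).

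Across the 20 points of class by library, the genes whose log2 CPM ran most like each coreceptor were named by Pearson correlation among 8291 genes, as a description with no test, since points of 1 class or of 1 library are not independent. For Cd4 they were Cd82 (r = 0.946), Ramp1 (0.941), Thrb (0.919), Map3k5 (0.915) and Stard4 (0.914). For Cd8a they were Spata13 (0.932), Ifitm1 (0.930), Spint2 (0.904), Hcst (0.895) and Pla2g16 (0.881). For Cd8b they were Dst (0.952), Cpd (0.921), Cd4 (0.887), Drap1 (0.880) and Ramp1 (0.879). Cd4 was thus among the 5 genes nearest to Cd8b, while Cd8a was not.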

How the data were processed

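The values the authors deposited are raw UMI counts for 4 libraries made with a 10x 5′ kit from Ficoll-isolated blood cells, per the labels' protocols. Cell Ranger, Seurat and mm10 are named in the submitters' processing notes, without version or role. The deposited gene and barcode lists (unit other) were read for names, and barcodes were not used to match cells. Totals were 62481134, 60515205, 76597006 and 79516878 UMIs. A cell was kept if it had 200 genes or more and no more than 10% mitochondrial UMIs, which left 12073, 11027, 11371 and 13561 cells.

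Classes needed at least 2 of 7 T, 2 of 7 B, 2 of 4 monocyte or 3 of 11 NK markers. They also needed fewer than 2 markers of another of the T, B and monocyte lineages, which also served to remove doublets. B cells and monocytes had to carry fewer than 3 NK markers. Monocytes could hold at most 2 of 6 neutrophil, 1 of 6 dendritic cell and 1 of 5 platelet markers. T cells could carry any number of NK markers. Monocytes with at least 70% of their UMIs of 9 subset genes (3 classical, 6 nonclassical) from the classical ones were called classical, and those with at most 30% nonclassical. Of the kept cells, 13.4%, 14.4%, 12.2% and 10.6% had no class. Scrublet (scanpy 1.11.5) marked 4.10% to 5.47% of cells, and leaving these out was an alternative.

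Levels have exact Poisson, shares Clopper-Pearson and ratios exact conditional binomial intervals, all at 95% and for counting error only. Where a count was 0, 3 counts set the upper limit. Fold shares and medians over all genes between libraries covered genes that reached 50 CPM in one of them and 20 UMIs in sum. Genes of the 5 lists needed only the 20 UMIs, so a list could hold genes too low to enter the all-gene values. Within-library contrasts used UMIs summed per library and side, each with at least 20 cells, in edgeR 4.0.16 (quasi-likelihood test, TMM, filterByExpr, library as a block) with Benjamini-Hochberg adjustment. Both sides of a contrast come from the same library, which pairs them. The 4 libraries are different times, so p-values measure the spread of a within-library difference over times. A standard error is the log2 difference divided by the square root of its F statistic. The code was tested on simulated data. DESeq2 1.42.0 was an alternative. Named genes were the 10 with the smallest p in each direction with the same sign in every library, without ribosomal, mitochondrial, haemoglobin, variable-segment and unnamed genes, plus members of the 5 lists. The coreceptors, the lists, the markers and the tests were chosen with earlier results of these data known. Single values of some list members are not reported here.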

Additional observations from a re-analysis of the deposited data

Results flagged for a closer look

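Cd8a moved in opposite directions, against the same control library, in different cell classes, and these differences were not tested because each time is 1 library. At 12 h the ratio to control was 1.12 in T-like cells, 0.724 in NK-like cells, 1.39 in nonclassical and 2.39 in classical monocyte-like cells. At 24 h it was 0.836 in T-like and 0.910 in NK-like cells against 3.44 in nonclassical and 5.00 in classical cells. At 96 h it was 0.949 in T-like cells against 3.68 in nonclassical and 2.85 in classical cells. With the stricter gate the T-like ratio at 12 h was 0.9496. The control value of classical cells was not separable from that of B-like cells.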

How the results depend on the processing

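No paired analysis was possible for the times because each time is 1 library; in the contrasts the library is the block. With no replicate block the T-like contrast gave 258 genes higher and 218 lower, the NK-like contrast 161 and 130, and the nonclassical contrast 0 and 0. In the same order, DESeq2 gave 313 and 298, 143 and 167, and 7 and 14, and thinning to 2000 UMIs gave 252 and 182, 101 and 162, and 16 and 26. Thinning also redrew the sides of each contrast from the thinned coreceptor UMIs and lowered the UMI sums. No low-count filter gave 833 higher for T-like and 59 and 111 for nonclassical cells. Leaving out each library gave 284 to 504 and 285 to 453 for T-like, 212 to 268 and 179 to 280 for NK-like, and 14 to 36 and 29 to 72 for nonclassical cells. Without cells holding a dendritic marker 15 genes were lower in nonclassical cells, an alternative chosen after seeing the data, as was leaving out T-like cells of 3 or more NK markers, under which Tbx21 turned to -0.34.

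For ratios to control, the stricter gate gave 0.9496, 0.752 and 0.868 for T-like Cd8a at 12 h, 24 h and 96 h, which turned the 12 h direction. It gave 1.14 and 0.961 for T-like Cd8b at 12 h and 96 h, 1.503 for T-like Cd4 at 12 h, 1.53 for nonclassical Cd8a at 12 h, and 1.54 and 1.41 for nonclassical Cd8b at 24 h and 96 h. Without the cell filter T-like Cd8a was 1.16, 0.865 and 0.983. Median-of-ratios scaling gave 1.04 and 0.893 for T-like Cd8a at 12 h and 24 h, and 1.26 and 1.07 for Cd8b. The mean over cells gave 0.922 for T-like Cd8a at 96 h and 2.34 for nonclassical Cd8b at 24 h. Cd8a shares in NK-like cells were 83.8%, 66.0%, 83.8% and 78.9% at 2 or more UMIs and 79.3%, 66.2%, 77.3% and 75.7% when thinned. In nonclassical cells they were 15.1%, 20.4%, 46.2% and 52.2%, and 20.3%, 26.9%, 47.7% and 53.9%, and the stricter gate gave 58.1% and 63.5% at 24 h and 96 h. The causes were not tested, beyond fewer cells or UMIs. The low count of Cd4 UMIs limits what can be said of cells without it.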
